A study of Mus musculus with 18 samples.

Results

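Of 18 RNA libraries from mouse embryonic fibroblasts (MEFs), 3 were selected on a readout, namely that more than 5% of their read pairs were not aligned, and these 3 were compared with the other 15. They were control replicate 1, in which 54.2% of pairs were unaligned, 10 µM replicate 6, with 5.24%, and 30 µM replicate 6, with 37.9%. In the other 15 libraries the unaligned share ran from 1.72% to 3.59%, with a median of 2.23%. The library just inside the limit was therefore 10 µM replicate 6, and the one just outside it was 30 µM replicate 5, with 3.59%. These shares chose the libraries and are given as a description with no test.

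MEFs are connective-tissue cells grown from mouse embryos, and here they were kept for 24 h with vehicle, 10 or 30 µM uracil, the base that uridine phosphorylase releases from uridine. The titles number 6 libraries at each dose. All cells grew in DMEM with foetal bovine serum, glutamine, penicillin and streptomycin. The study calls the libraries of a dose biological replicates. The strain of the embryos and whether the numbers stand for separate embryo preparations or for separate cultures were not given in the sources used here. The tests measure the spread between libraries of the same number at different doses, the 3 chosen libraries left out. Replicate number 6, with control replicate 6 alone remaining, adds nothing to this spread. Both number 6 comparisons therefore borrow it from the other numbers. Total RNA was sequenced as paired ends after depletion of ribosomal RNA with a strand-specific kit. The study left out a vehicle sample and a 30 µM sample because of human RNA, and did not name them in the sources used here.

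RNA of another species, or any RNA that fits poorly to the reference, can reach a count table through stretches that the genomes share. Protein-coding exons are among the best conserved parts of mammalian transcripts, whereas pseudogenes and families that grew in rodents often have no close human counterpart. The deposited counts hold no reads, so the origin of a count cannot be told apart here, and the part of foreign RNA in each result below was not tested.

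The 3 libraries differed from the rest in what became of their aligned pairs as well. In the order control replicate 1, 10 µM replicate 6, 30 µM replicate 6, which is kept below wherever 3 values stand together, pairs that aligned outside every annotated gene made up 21.3%, 14.03% and 25.0% of aligned pairs, against 7.002% to 8.86% in the other 15. Pairs that aligned to more than 1 position made up 12.2%, 14.7% and 10.4%, below the 17.9% to 20.7% of the others. Gene counts came to 3.96 M, 14.7 M and 7.39 M pairs, against 11.6 M to 20.8 M, so values of control replicate 1 rest on the fewest counts, although it was compared with 2 libraries and the others with 1. No library of the other 15 overlapped with the 3 in the first 2 of these measures.

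**Figure D1:**
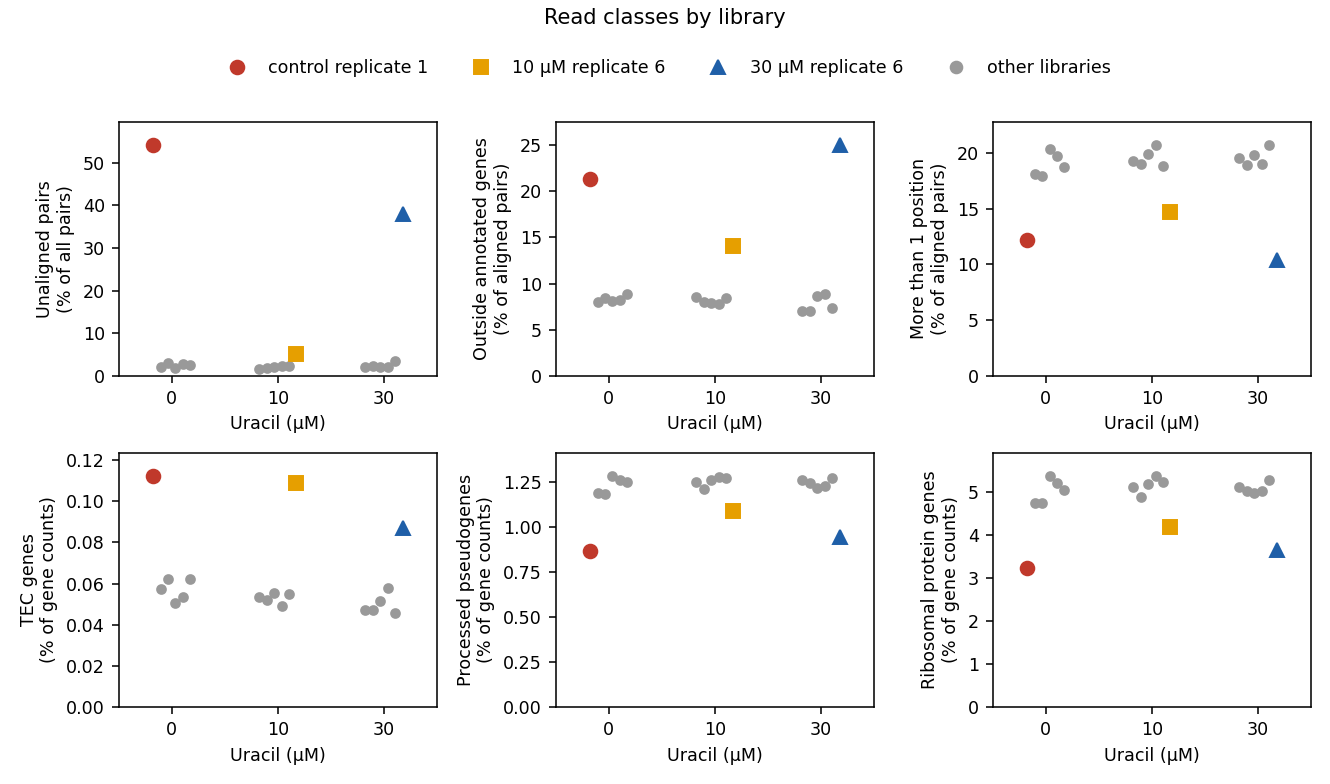
Shares of read classes (vertical axes, in percent) by uracil dose (horizontal axis, µM), with 1 point per library; coloured symbols are the 3 libraries with over 5% unaligned pairs and grey points the other 15. The 3 lie above the grey points for pairs outside genes and TEC genes and below them for pairs with more than 1 position, processed pseudogenes and ribosomal protein genes.

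Each of the 3 libraries was then compared, gene by gene, with the libraries of its own replicate number: control replicate 1 with 10 µM and 30 µM replicate 1, and both number 6 libraries with control replicate 6. The last of these comparisons thus share a control, and in each of them the uracil dose differs between the libraries compared as well, so a dose effect within a number cannot be told apart from the library. Levels are CPM (counts scaled to library size by TMM), differences are log2 values with their standard error (SE), and a call is an adjusted p under 0.05 in edgeR's quasi-likelihood test with Benjamini-Hochberg adjustment over 13865 genes. In control replicate 1, 2588 genes (18.7% of those tested) were called higher and 2424 (17.5%) lower. In 30 µM replicate 6 the counts were 2474 (17.8%) and 2052 (14.8%). In 10 µM replicate 6 they were 766 (5.52%) and 41 (0.296%), nearly all in 1 direction. Scaling by library totals alone changed these splits, to 2039 higher and 3394 lower for control replicate 1, 527 and 167 for 10 µM replicate 6, and 1390 and 4012 for 30 µM replicate 6. Scaling on genes without a curated name gave 2125 and 3111 for control replicate 1 and 2922 and 1489 for 30 µM replicate 6.

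Genes in excess in all 3 libraries numbered 604 (4.36% of those tested), and genes depleted in all 3 numbered 16 (0.115%). These counts depended on the processing: they were 397 and 108 with library totals alone, and the depleted genes numbered 69 without a filter on low counts, 170 without the replicate block and 98 without 30 µM replicate 5. Without any test, the CPM of all 3 lay above the highest of the other 15 for 1628 genes (11.7%) and below the lowest for 874 (6.3%). The median log2 differences of the 604 genes were 1.13, 0.72 and 0.99. They took 11.7%, 10.4% and 11.2% of all gene counts in the 3 libraries, against 6.26% to 7.66% in the others. Of them, 589 were protein-coding. The libraries were known to stand apart when they were chosen, so nothing is read from these counts against the background.

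Control replicate 1 shares no library with the comparisons of number 6, so its genes could be followed there. Of the 766 genes higher in 10 µM replicate 6, 730 (95.3%) were also called higher in control replicate 1, where they are 28.2% of the genes called higher and where 18.7% of all genes were called higher. Of the 41 genes lower in 10 µM replicate 6, 21 were lower in control replicate 1 and 8 were higher. Between control replicate 1 and 30 µM replicate 6, 1269 genes were called higher in both, which is 49.0% of the former's higher genes and 51.3% of the latter's, and 672 were called lower in both, or 27.7% and 32.7%. Over all genes the matching shares were 17.8% and 18.7% for higher and 14.8% and 17.5% for lower. Across all 13865 genes the log2 differences of these 2 libraries had a Pearson r of 0.34 and a Spearman rho of 0.33, given as a description, since genes of 1 library are not independent and share its depth and base composition.

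**Figure D2:**
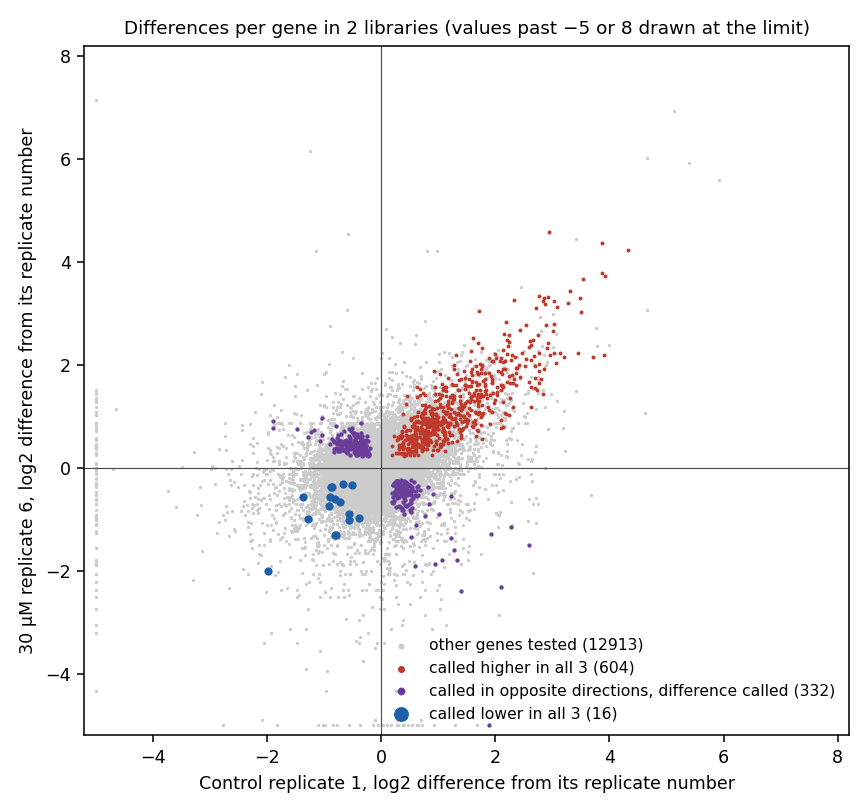
Log2 difference of each of 13865 genes in control replicate 1 (horizontal axis) and in 30 µM replicate 6 (vertical axis), each against the libraries of its own number; red, blue and violet points are the 604 genes called higher in all 3, the 16 called lower in all 3 and the 332 called in opposite directions. Most red points lie between 0 and 4 on both axes, and violet points fill the other corners.

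The 12 genes with the largest shared excess, by the smallest of their 3 differences, included several that act in transcription and chromatin. Polr2a encodes the largest subunit of RNA polymerase II. Its level was 345, 224 and 393 CPM in the 3 libraries, whereas the other 15 libraries ran from 21.5 to 52.9 with a median of 24.7. The 3 libraries were thus all several times above every other library, with log2 differences of 3.86 ± 0.25 (SE; adjusted p = 1.06e-06 in edgeR), 2.97 ± 0.31 (0.00035) and 3.79 ± 0.31 (9.94e-06). The gene lies on chromosome 11 (GRCm39, 69624820 to 69649468, minus strand), with the RNA genes Gm72538 on the same and Gm72550 on the other strand, so part of its counts cannot be placed with certainty.

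Genes for histone methyltransferases and demethylases followed. Kmt2d, a histone H3 lysine 4 methyltransferase (chromosome 15, 98729550 to 98769085), stood at 277, 210 and 456 CPM against 20.9 to 44.9 (median 26.4). Setd1b, another enzyme of that kind (chromosome 5, 123280256 to 123306692), stood at 47.1, 21.2 and 68.4 CPM against 2.34 to 5.36 (median 3.20). Its log2 difference was highest in 30 µM replicate 6, at 4.38 ± 0.27, and lowest in 10 µM replicate 6, at 2.69 ± 0.29. Kdm6b, which removes methyl groups from histone H3 lysine 27 (chromosome 11, 69289334 to 69304501), stood at 73.0, 44.4 and 120 CPM against 4.69 to 13.2 (median 7.35). For all of these genes the 3 libraries did not overlap with the others.

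Other genes for chromatin proteins showed the same order. Bicra, a subunit of a SWI/SNF chromatin remodelling complex, had 18.9, 15.8 and 26.5 CPM against 1.86 to 4.00, and Mbd6, a protein with a methyl-CpG-binding domain, had 21.5, 14.4 and 31.1 CPM against 1.96 to 3.51. In both genes 10 µM replicate 6 was the lowest of the 3 and 30 µM replicate 6 the highest.

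Tead1, a transcription factor of the Hippo pathway (chromosome 7, 112278522 to 112506014), had 500, 360 and 382 CPM against 57.0 to 125, with log2 differences of 3.03 ± 0.28, 2.15 ± 0.34 and 2.23 ± 0.34. Ppp2r2a, a regulatory subunit of protein phosphatase 2A (107, 69.5 and 65.0 CPM against 12.97 to 27.2), and Parp4, a poly(ADP-ribose) polymerase family member (48.2, 32.0 and 37.1 CPM against 5.79 to 12.01), were likewise highest in control replicate 1. Zfp469, a zinc finger gene, had 123, 103 and 210 CPM against 10.98 to 28.2. For none of the 12 genes was the difference between control replicate 1 and 30 µM replicate 6 called (edgeR adjusted p from 0.0983 to 0.924), which does not show that they were equal. In GENCODE M39 Zfp469 overlapped no other gene, while each of the other 11 overlapped a gene on the opposite strand, and the strand setting of the counting was not given in the sources used here.

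The same 12 genes were not uniform among the other 15 libraries either. Control replicate 3, with 3.09% unaligned pairs, had the highest CPM of the 15 for 11 of the 12 genes and for 353 of the 604. Its levels of the 604 genes lay a median log2 of 0.23 above the median of the 15. In 30 µM replicate 5, which had the most unaligned pairs of the 15, that median was -0.03, and it was the highest of the 15 for 29 of the 604. A library under the limit thus had raised levels of most of these genes. The lowest such median, -0.13, was that of 10 µM replicate 1, which had the fewest unaligned pairs (1.72%). Among the 15 the order of these medians was not strictly that of the unaligned share. Besides 30 µM replicate 5, 10 µM replicate 4 (2.46% unaligned) had a median below 0, of -0.07. Their relation was not tested.

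**Figure D3:**
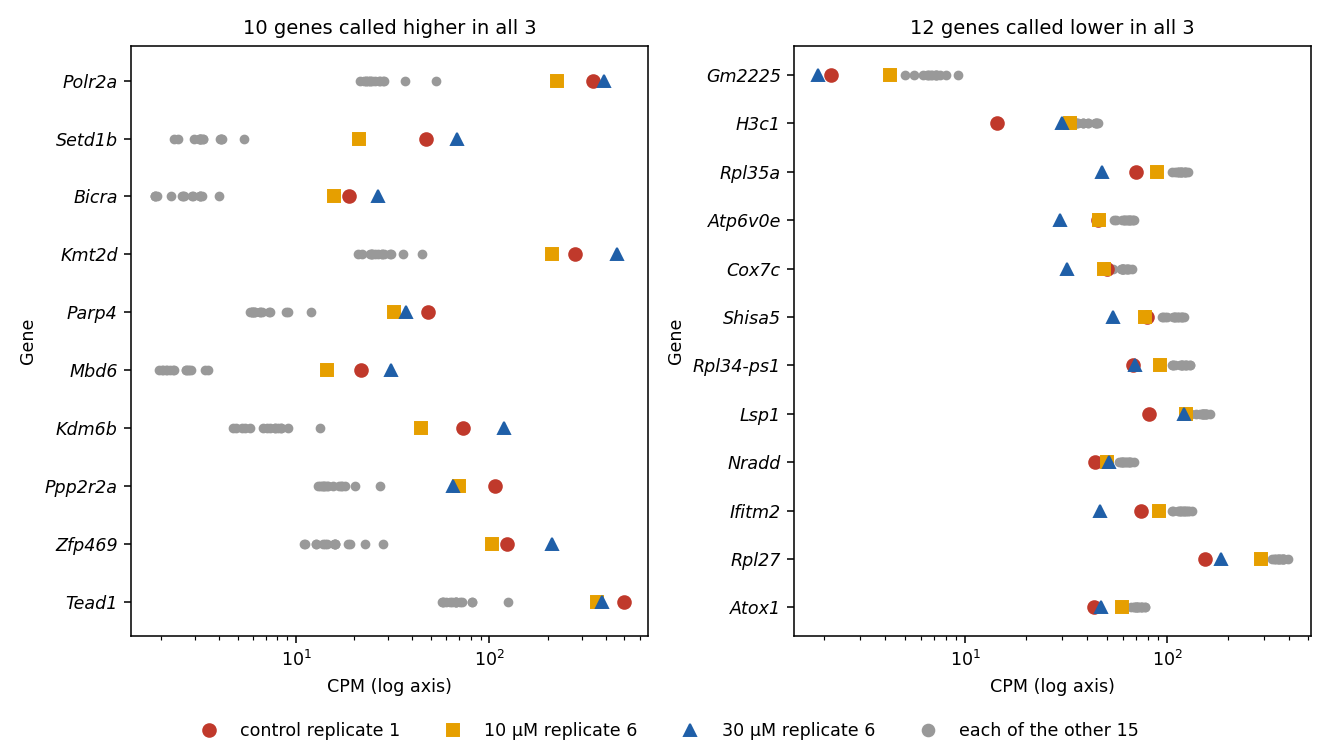
CPM on a log axis (horizontal) of 10 genes called higher in all 3 libraries (left) and 12 called lower in all 3 (right), with 1 row per gene; coloured symbols are the 3 libraries and grey points each of the other 15. On the left the 3 libraries lie well to the right of the grey points, while on the right 10 µM replicate 6 lies close to them.

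Families around these genes were chosen after the values of their members were seen, so their counts are a description. Of 25 tested Kmt and Kdm genes, 8 (32.0%) were called higher in all 3 libraries, compared with 4.36% of all genes, while 1 was lower in control replicate 1 and 3 were lower in 30 µM replicate 6. Of 8 Setd genes, 3 were higher in all 3 and 1 was lower in control replicate 1. Of 13 tested subunits of RNA polymerase II, 1, Polr2a, was higher in all 3. In control replicate 1, 2 were higher and 5 lower, 1 and 1 in 10 µM replicate 6, and 2 and 3 in 30 µM replicate 6. The subunits called higher, 15.4%, 7.69% and 15.4%, compare with 18.7%, 5.52% and 17.8% of all genes. Those called lower, 38.5%, 7.69% and 23.1%, compare with 17.5%, 0.296% and 14.8%.

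Genes in excess had long transcripts. The longest annotated transcript (GENCODE M39) of the 589 coding genes higher in all 3 had a median of 7564 bases, against 4498 for all 12053 coding genes tested and 1341 for the 13 coding genes lower in all 3. In 5 bins of equal size by length, the median log2 difference rose from the shortest to the longest bin in every one of the 3, from -0.30 to 0.29, from -0.12 to 0.20 and from -0.08 to 0.19. Counts grow with length, so long genes are also called more easily, and this was not separated here. Of the 2411 genes in the longest bin, 374 (15.5%) were higher in all 3, compared with 11 of 2412 (0.456%) in the shortest.

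Base composition divided the libraries. From the bin of lowest to that of highest GC content the median log2 difference rose from -0.32 to 0.36 in 30 µM replicate 6, fell from 0.13 to -0.17 in control replicate 1, and moved from 0.05 to -0.02 in 10 µM replicate 6. Coding genes higher in 30 µM replicate 6 had a median GC content of 53.7% and those higher in control replicate 1 of 47.8%, against 49.2% for all coding genes. The 589 genes higher in all 3 lay between, at 49.9%.

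**Figure D4:**
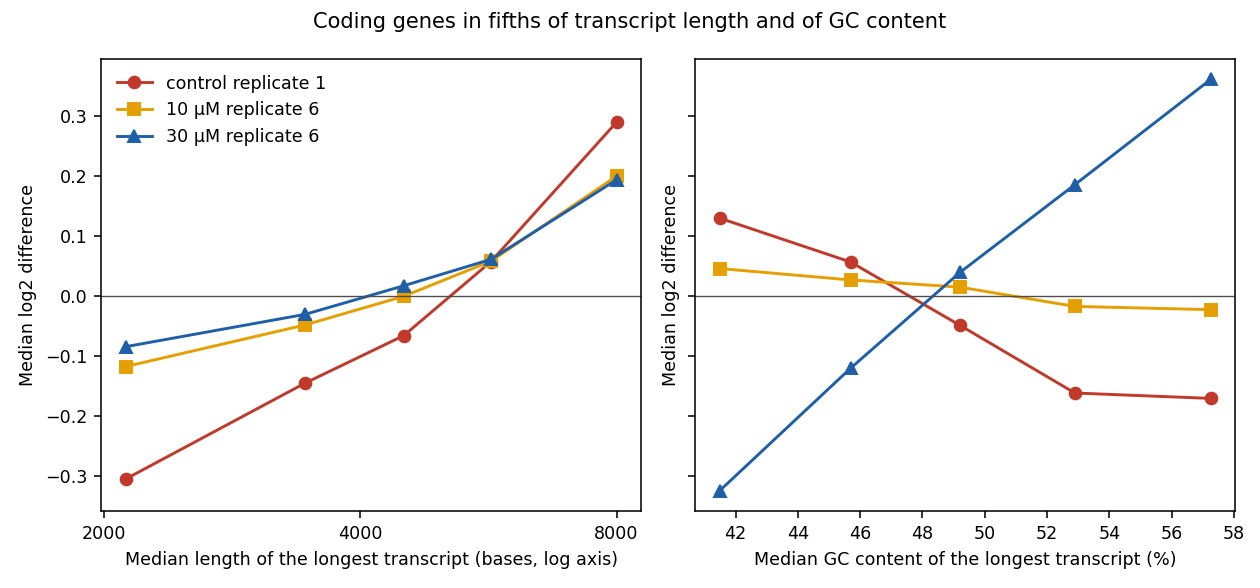
Median log2 difference (vertical axis) of coding genes in 5 bins of equal size by length of the longest transcript in bases on a log axis (left) and by its GC content in percent (right), with 1 line per library. All 3 lines rise with length, whereas with GC content the line of 30 µM replicate 6 rises and that of control replicate 1 falls.

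Runs of CAG and of GCC were more common in the transcripts in excess. A run of 5 CAG units on the sense strand was found in 52 of the 589 coding genes higher in all 3 (8.83%) and in 238 of all 12053 coding genes tested (1.97%). It was found in 4.60% of genes higher in control replicate 1 and 4.49% of those higher in 30 µM replicate 6, but in 18 of 2199 and 22 of 1835 of those lower. Within the longest length bin, 39 of 374 genes higher in all 3 (10.4%) and 94 of 2411 genes in all (3.90%) held a run. On either strand, counting CTG runs too, 65 of the 589 and 355 of all 12053 (2.95%) held one. Runs of 5 GCC units on the sense strand stood in 6.79% of the genes higher in all 3 and 1.84% of all, and runs of 5 GAG units in 4.58% and 2.17%. Outside the longest length bin the sense-strand shares were 6.05% and 1.49% for CAG and 5.58% and 1.44% for GCC. For GAG they were 1.86% and 1.74%, so its difference was not seen on the sense strand of shorter transcripts. On either strand the GAG shares there were 6.51% and 2.49%. A run in the annotated transcript does not show that reads came from it.

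Of the 12 named genes, 5 held a CAG run, and 2 whose longest run lay inside 1 coding exon are shown, because they are among the genes in largest excess and carry the repeat. Capitals mark the run, with 24 bases on either side, 5′ to 3′ on the transcribed minus strand of GRCm39 (GENCODE M39).
Kmt2d, exon 35, 16 CAG units, chr15:98747447-98747542: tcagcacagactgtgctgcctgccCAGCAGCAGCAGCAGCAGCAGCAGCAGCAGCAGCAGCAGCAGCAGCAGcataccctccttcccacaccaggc
Kdm6b, exon 10, 8 CAG units, chr11:69297110-69297181: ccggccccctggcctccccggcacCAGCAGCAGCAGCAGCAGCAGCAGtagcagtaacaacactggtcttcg

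A few features were in excess by more than 10 times the highest of the other 15 libraries in control replicate 1 or 30 µM replicate 6, and were singled out after their values were seen. The identifier ENSMUSG00000076258, which has no name in GENCODE M39, had 32650 CPM in control replicate 1 and 39410 CPM in 30 µM replicate 6, against 447 to 1368 in the others. In 10 µM replicate 6 it had 2918 CPM. The identifier ENSMUSG00000106106, likewise without a name, had 6296, 2834 and 23350 CPM against 110 to 772. These 2 identifiers took 3.65%, 0.562% and 5.49% of all gene counts, against 0.0605% to 0.214% in the others. The whole class of identifiers without a name took 5.02%, 1.57% and 6.19% against 1.39% to 1.72%, so that most of its excess lay in this pair.

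Lars2, the mitochondrial leucyl-tRNA synthetase (chromosome 9, 123195952 to 123291731), had 321, 37.7 and 551 CPM against 4.16 to 19.0, and the lncRNA Gm15564 had 34.5, 1.67 and 42.4 CPM against 0 to 1.40. None of these 4 features was called in 10 µM replicate 6 (edgeR adjusted p from 0.0977 to 0.188), so none is among the 604. Mospd3 and Zfhx2, past the same limit, were called higher in all 3 but averaged under 1 CPM in the other 15. Mospd3 had 13.2, 4.45 and 15.9 CPM against 0.509 to 1.29.

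A filter for genes seen in control replicate 1 and 30 µM replicate 6 but not in the other 15 found none. That is, 0 genes had at least 10 counts in both of these libraries and under 0.1 CPM in each of the other 15. 10 µM replicate 6 was not part of this filter, and genes with fewer counts would be missed by it. The 16 genes depleted in all 3 libraries had median log2 differences of -0.81, -0.35 and -0.71, smallest in 10 µM replicate 6, and the 13 coding ones had a median transcript of 1341 bases. Rpl35a, a protein of the large ribosomal subunit (chromosome 16, 32876630 to 32880559), had 70.3, 88.8 and 47.5 CPM against 105 to 126, with log2 differences of -0.81 ± 0.11, -0.40 ± 0.10 and -1.30 ± 0.12. Rpl27, of the same subunit, had 154, 291 and 185 CPM against 332 to 395. The processed pseudogene Rpl34-ps1 had 67.3, 91.7 and 69.2 CPM against 105 to 130. No value of the 3 libraries overlapped with the others in these genes.

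The histone H3 gene H3c1 had 14.3, 32.9 and 30.2 CPM against 32.4 to 45.4, so that 10 µM replicate 6 overlapped with the other 15. Gm2225, a processed pseudogene, had 2.16, 4.24 and 1.86 CPM against 5.00 to 9.15, from 8, 61 and 12 counts. Atp6v0e, a subunit of the vacuolar proton pump (45.5, 46.0 and 29.6 CPM against 54.1 to 68.1), Cox7c, a subunit of cytochrome c oxidase (50.1, 48.5 and 31.7 against 54.1 to 66.5), and Atox1, a copper chaperone (43.1, 59.8 and 47.2 against 66.2 to 77.5), were below every other library. So were Shisa5 (78.9, 77.6 and 53.7 against 94.0 to 121), Ifitm2, an interferon-induced membrane protein (74.1, 91.4 and 46.6 against 106 to 133), Lsp1 (81.3, 124 and 120 against 131 to 164) and Nradd (43.9, 50.3 and 51.2 against 57.9 to 68.7). In 10 µM replicate 6 the edgeR adjusted p of the 12 ran from 0.0062 for Shisa5 to 0.0499 for Gm2225, above the values of the same genes in the other two.

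Most ribosomal protein genes fell in control replicate 1 and 30 µM replicate 6, and few were called in 10 µM replicate 6. Of 75 cytosolic ribosomal protein genes, 62 were lower and 0 higher in control replicate 1, 3 and 0 in 10 µM replicate 6, and 40 and 2 in 30 µM replicate 6. Their median log2 differences were -0.60, -0.20 and -0.33, against -0.02, 0.01 and 0.02 over all genes tested. The medians of the ribosomal protein and histone lists stayed below 0 under each other scaling. Rplp0 had 1928, 2678 and 2427 CPM against 2902 to 3389, below all others, whereas Rpl4 had 1544, 1862 and 2052 CPM against 1918 to 2152 and was called only in control replicate 1. Processed pseudogenes, 669 of them tested, also had medians below 0, of -0.48, -0.12 and -0.29. Calls were 150 lower and 31 higher in control replicate 1, 4 and 0 in 10 µM replicate 6, and 111 and 28 in 30 µM replicate 6. The shares called lower were 22.4%, 0.598% and 16.6%, compared with 17.5%, 0.296% and 14.8% of all genes. For ribosomal protein genes they were 82.7%, 4.0% and 53.3%, so by lower calls the pseudogenes lay much nearer to all genes. Pseudogenes were called higher less often than all genes, at 4.63%, 0.0% and 4.19% against 18.7%, 5.52% and 17.8%. Pairs that fit a gene and its near-identical copy equally are not counted for either, so the counts of both groups are uncertain.

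Replication-dependent histone genes, whose transcripts end in a stem loop instead of a poly(A) tail, showed 42 lower and 0 higher of 61 tested in control replicate 1, 1 and 0 in 10 µM replicate 6 and 25 and 3 in 30 µM replicate 6 (medians -0.94, -0.24 and -0.45). The linker histone gene H1f2 was an exception, with 588 CPM in 30 µM replicate 6 against 298 to 484 in the others and 232 CPM in control replicate 1, while H1f4 had 282, 343 and 418 CPM against 297 to 393. Heat shock proteins and chaperonins showed 13 lower and 2 higher of 26 in control replicate 1, 0 and 0 in 10 µM replicate 6, and 14 and 2 in 30 µM replicate 6. The shares lower were 50.0%, 0.0% and 53.8% for these and 68.9%, 1.64% and 41.0% for the histone genes. They compare with 17.5%, 0.296% and 14.8% of all genes. Calr, a chaperone of the endoplasmic reticulum, had 766, 1032 and 973 CPM against 1169 to 1549, below all others. Families expanded in rodents showed 5, 0 and 6 lower of 22 tested (22.7%, 0% and 27.3%, against 17.5%, 0.296% and 14.8% of all genes), and 0 higher in each library. Ly6a, a surface antigen of mouse cells, had 62.8, 24.9 and 17.8 CPM against 31.4 to 78.8.

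Developmental transcription factors were in part in excess. Of 52 tested, Hox genes included, 22 were higher and 2 lower in control replicate 1, 8 and 0 in 10 µM replicate 6, and 14 and 3 in 30 µM replicate 6, with 7 (13.5%) higher in all 3 against 4.36% of all genes. Shares called higher, 42.3%, 15.4% and 26.9%, compare with 18.7%, 5.52% and 17.8% of all genes. Those called lower, 3.85%, 0.0% and 5.77%, compare with 17.5%, 0.296% and 14.8%. The medians were 0.46, 0.23 and 0.27, and the last was 0.044 with library totals alone. Prrx1, a homeobox gene of mesenchyme, had 417, 249 and 214 CPM against 150 to 221, so that 30 µM replicate 6 overlapped with the other 15 and yet was called against its own control at a log2 of 0.40 ± 0.12. Of 324 Zfp zinc finger genes, 17 (5.25%) were higher in all 3, near the 4.36% of all genes, and the medians were 0.03, 0.10 and -0.08, the first of which turned negative when scaled by library totals or by uncurated genes. Zfp106 had 339, 353 and 361 CPM against 196 to 257.

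TEC genes, a GENCODE class of transcribed loci that still await experimental proof, took 0.112%, 0.109% and 0.0871% of gene counts against 0.0455% to 0.0623%. Of 207 tested, 75 were higher and 2 lower in control replicate 1, 19 and 0 in 10 µM replicate 6 and 28 and 3 in 30 µM replicate 6, with 9 (4.35%) higher in all 3. The shares called higher, 36.2%, 9.18% and 13.5%, compare with 18.7%, 5.52% and 17.8% of all genes, and the share higher in all 3 was near that of all genes. LncRNA genes showed 70 higher and 18 lower of 546 in control replicate 1, 8 and 0 in 10 µM replicate 6, and 29 and 23 in 30 µM replicate 6, shares below those of all genes in both directions. Both classes often lie within introns of other genes, and a pair from an unspliced transcript can be counted for them.

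**Figure D5:**
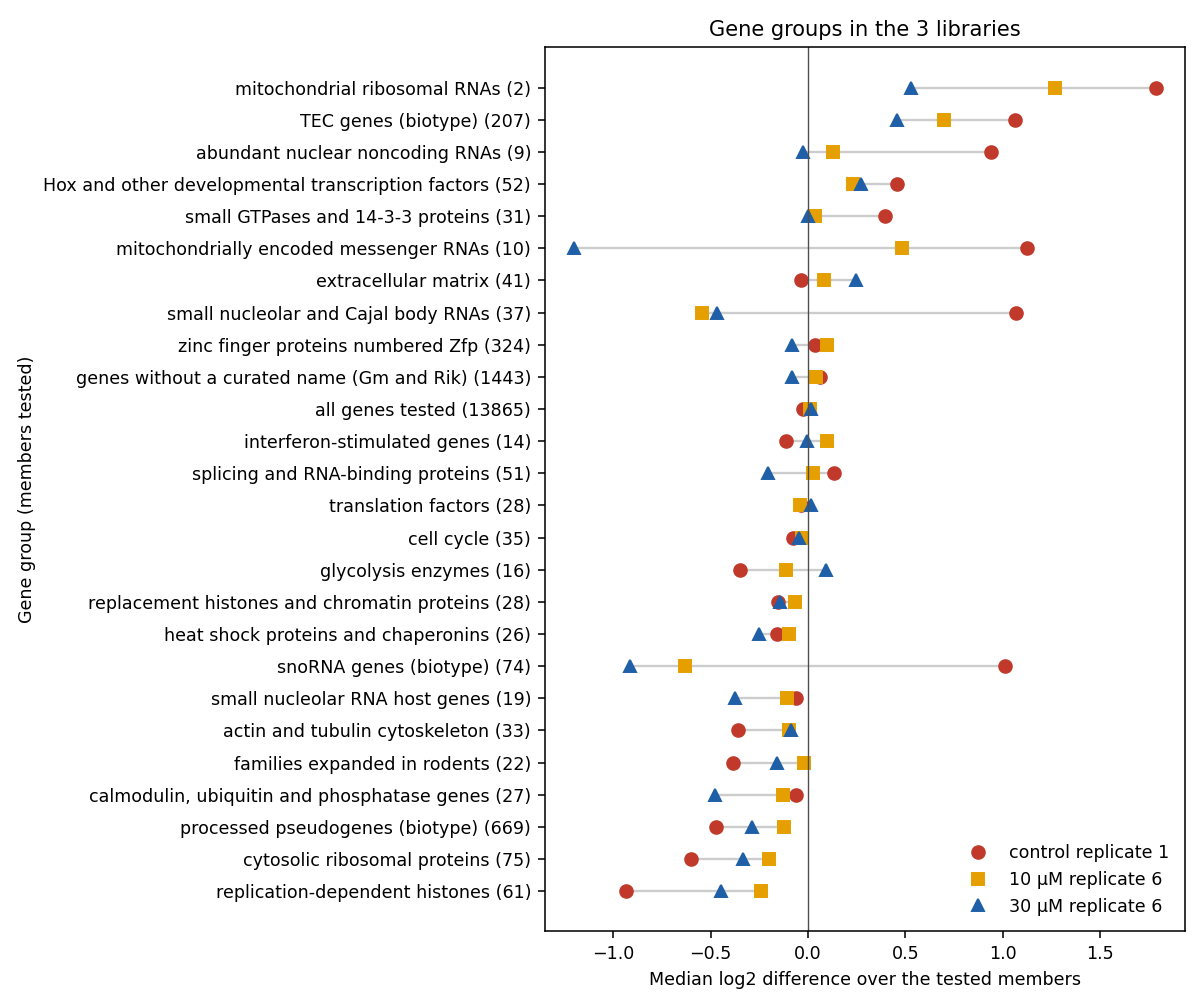
Median log2 difference (horizontal axis) over the tested members of each gene group (vertical axis, number of members in brackets), with 1 symbol per library. The 3 symbols lie together below 0 for ribosomal proteins, histones and processed pseudogenes and above 0 for developmental transcription factors and TEC genes, and on opposite sides for small nucleolar RNAs and mitochondrial messenger RNAs.

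The libraries disagreed in direction for small nucleolar RNAs (snoRNAs) and for other genes. The difference between control replicate 1 and 30 µM replicate 6 was called for 1404 genes in favour of the former (10.1%) and 1715 in favour of the latter (12.4%), and a scaling on uncurated genes moved this split to 752 and 2639. Of these, 135 genes (0.974%) were called higher in control replicate 1 and lower in 30 µM replicate 6, and 197 (1.42%) the reverse, counts that moved to 50 and 368 with that scaling and to 74 and 93 with dose as a term. SnoRNA genes guide the chemical modification of ribosomal RNA, and most lie in introns of host genes. Of the 74 tested, 35 were higher and 2 lower in control replicate 1, 0 and 6 in 10 µM replicate 6, and 1 and 26 in 30 µM replicate 6, with medians of 1.01, -0.63 and -0.92. The shares higher, 47.3%, 0.0% and 1.35%, compare with 18.7%, 5.52% and 17.8% of all genes. The shares lower, 2.7%, 8.11% and 35.1%, compare with 17.5%, 0.296% and 14.8%. Of the same 74, 41 had a called difference, all with control replicate 1 above 30 µM replicate 6.

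Snora57 (chromosome 19, 8865902 to 8866049) had 187, 19.1 and 16.2 CPM, against 24.6 to 45.9 in the others. It was thus above all others in the first and below all others in the other two, with a difference between control replicate 1 and 30 µM replicate 6 of 4.09 ± 0.44 (SE; edgeR adjusted p = 0.000206). The small Cajal body RNA Gm22767 (10.5, 1.25 and 0.619 CPM against 1.796 to 3.17), the snRNA Rnu11 of the minor spliceosome (13.2, 3.61 and 1.39 CPM against 3.29 to 7.32) and the snoRNA Gm23946 (17.8, 3.20 and 4.02 CPM against 4.09 to 9.84) were likewise above all others in the first and below all others in 30 µM replicate 6, while in 10 µM replicate 6 Rnu11 overlapped with them. The unnamed identifier ENSMUSG00000065820 had 86.5, 20.3 and 13.3 CPM against 15.3 to 29.5. Another, ENSMUSG00000095892, had 15, 14 and 0 counts. The limit that 0 counts allows in 30 µM replicate 6 is 0.464 CPM (3 counts, for counting error only), inside the 0.149 to 1.68 CPM of the other 15.

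Snora73a had 701, 328 and 278 CPM against 428 to 570, but Snora73b from the same host gene had 325, 148 and 297 CPM against 133 to 281 and was called only in control replicate 1. In the list of named snoRNA and scaRNA genes, 19 of 37 were higher and 2 lower in control replicate 1, 0 and 4 in 10 µM replicate 6, and 1 and 7 in 30 µM replicate 6. A separate list of snoRNA host genes (Gas5, Zfas1, Epb41l4aos, Dancr and the numbered Snhg genes) was seldom called higher. It was not matched to these 37 genes, so it does not show how their own hosts moved. Of 19 tested in that list, 1 was higher and 4 lower in control replicate 1, 0 and 0 in 10 µM replicate 6 and 0 and 7 in 30 µM replicate 6. Gas5 had 92.1, 134 and 77.1 CPM against 133 to 155. Higher calls made up 5.26%, 0.0% and 0.0% of the listed host genes, and lower calls 21.1%, 0.0% and 36.8%. Over all genes these shares were 18.7%, 5.52% and 17.8% for higher and 17.5%, 0.296% and 14.8% for lower. Counts of a snoRNA and those of unspliced RNA of its host cannot be told apart.

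Genes with the reverse pattern were mostly protein-coding, 192 of 197. So were the 135 genes with control replicate 1 high, of which 119 were protein-coding and 8 were snoRNA genes. Of all 13865 genes tested, 12053 were protein-coding. Ptms, which encodes parathymosin, had 88.3, 187 and 316 CPM against 188 to 238, a difference of -1.90 ± 0.19 (adjusted p = 1.71e-05 in edgeR). Haus5, a subunit of the augmin complex of the mitotic spindle, had 3, 52 and 41 counts, or 0.808, 3.61 and 6.34 CPM against 2.87 to 4.56. Hemk1, a methyltransferase (3.23, 7.99 and 10.1 CPM against 5.97 to 9.93), and Creld1 (3.77, 6.88 and 10.8 CPM against 5.55 to 11.7), overlapped with the others in 10 µM replicate 6, and Creld1 in 30 µM replicate 6 too. The pseudogenes Gm12751 (3.50, 12.4 and 22.8 CPM against 12.4 to 17.2) and Rpsa-ps2 (7.54, 17.1 and 25.5 CPM against 15.4 to 22.04) followed the same order. For these genes 10 µM replicate 6 was not called.

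Mitochondrial transcripts divided the libraries in another way. The 13 mitochondrially encoded messenger RNAs, which encode subunits of the respiratory chain, summed to 3988, 3455 and 861 CPM, against 1696 to 3477. 30 µM replicate 6 was thus below all others and control replicate 1 above all others. Of 10 tested, 4, 1 and 0 were called higher (40.0%, 10.0% and 0.0%, against 18.7%, 5.52% and 17.8% of all genes). In 30 µM replicate 6, 3 were lower (30.0%, against 14.8%). mt-Co1 had 2517, 2185 and 493 CPM against 1394 to 2664, and in 30 µM replicate 6 fell by 2.27 ± 0.30 on the log2 scale, while mt-Nd1 had 481, 418 and 119 CPM against 123 to 369 and was not called in any of the 3. The 2 mitochondrial ribosomal RNAs summed to 5468, 9267 and 5723 CPM against 1272 to 6236, with 0 calls, their spread between libraries of 1 number being large (SE of 0.93 to 1.28 for mt-Rnr1 and mt-Rnr2).

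Groups of abundant, conserved genes did not move as one. Their counts are to be read against the shares of all genes called higher and lower, which were 18.7% and 17.5% in control replicate 1, 5.52% and 0.296% in 10 µM replicate 6, and 17.8% and 14.8% in 30 µM replicate 6. Small GTPases and 14-3-3 proteins, which act in signalling and transport, showed 16 higher and 3 lower of 31 in control replicate 1, 1 and 0 in 10 µM replicate 6, but 7 and 9 in 30 µM replicate 6. Gnas had 1315, 1021 and 1166 CPM against 1017 to 1092, and Ran had 530, 507 and 433 CPM against 520 to 585. Splicing and RNA-binding proteins showed 18 higher and 9 lower of 51 in control replicate 1, 1 and 0 in 10 µM replicate 6, and 8 and 24 in 30 µM replicate 6, where Hnrnpk had 491 CPM against 690.5 to 766 and Ddx5 had 481 CPM against 598 to 719. Calmodulin, ubiquitin and phosphatase genes showed 7 higher and 9 lower of 27, then 0 and 1, and then 0 and 19, and such pairs below are likewise genes called higher and lower in the 3 libraries in turn. Rps27a in this list had 691, 459 and 522 CPM against 521 to 567.

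Actin and tubulin cytoskeleton genes showed 8 higher and 20 lower of 33, 1 and 1, and 8 and 11, and Actb had 10250, 8360 and 8491 CPM against 8140 to 9326. Translation factors showed 6 and 9 of 28, 1 and 0, and 8 and 11. Eef1a1 had 9818, 10030 and 8815 CPM against 10680 to 12330, below all others in the 3 libraries, whereas Eef2 had 3414, 6070 and 6579 CPM against 5004 to 7627. Glycolysis enzymes had 0 higher and 11 lower of 16 in control replicate 1, 0 and 0 in 10 µM replicate 6 and 5 and 0 in 30 µM replicate 6. Pkm, pyruvate kinase, had 1370, 2445 and 3240 CPM against 2470 to 3115, and Aldoa had 672, 1051 and 1135 CPM against 1152 to 1355. The median of the glycolysis list in 30 µM replicate 6, 0.09, turned to -0.14 with library totals alone.

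Replacement histones and chromatin proteins showed 8 higher and 12 lower of 28, 1 and 0, and 8 and 8, and Ptma had 381, 664 and 590 CPM against 650 to 762. Cell cycle genes showed 4 and 8 of 35, 2 and 0, and 3 and 9, of which the lower calls (22.9% and 25.7% in control replicate 1 and 30 µM replicate 6) compare with 17.5% and 14.8% of all genes. Ccnd2, a D-type cyclin, was in excess in all 3 libraries, with 1720, 996 and 1279 CPM against 599 to 883, while its relative Ccnd1 had 707, 609 and 703 CPM against 660 to 869. Interferon-stimulated genes showed 2 and 2 of 14, 0 and 0, and 2 and 1. Abundant nuclear noncoding RNAs showed 5 and 2 of 9, 0 and 0, and 2 and 1, and Malat1 had 2435, 2250 and 1857 CPM against 1452 to 2239 without a call. Uncurated genes (Gm and Rik) showed 193 and 149 of 1443, 26 and 7, and 90 and 146, with 11 higher and 1 lower in all 3.

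The label of the cells was checked with markers. Of 14 fibroblast genes, 13 passed the filter on low counts, 0 had a median of 0 CPM in the other 15 libraries, and the list summed to 40420, 29100 and 58020 CPM in the 3 libraries against 25970 to 30580. The 1 marker above all others in both control replicate 1 and 30 µM replicate 6 was Col1a1, the collagen I α1 chain, with 18460, 11700 and 32740 CPM against 6053 to 8788, and it was above all others in 10 µM replicate 6 too. It was called at log2 differences of 1.48 ± 0.14 in control replicate 1 and 1.98 ± 0.18 in 30 µM replicate 6, and not in 10 µM replicate 6 (0.49 ± 0.17, edgeR adjusted p = 0.142). Its partner chain Col1a2 had 10350, 8797 and 13960 CPM against 8719 to 10510. Extracellular matrix genes as a list showed 9 higher and 14 lower of 41, 7 and 0, and 19 and 2, with 6 higher in all 3. In control replicate 1 the share higher lay near the 18.7% of all genes, while 34.1% were lower, against 17.5%. The shares higher in 10 µM replicate 6 and 30 µM replicate 6 were 17.1% and 46.3%, against 5.52% and 17.8% of all genes. In 30 µM replicate 6, 4.88% were lower, against 14.8%. The share higher in all 3 was 14.6%, against 4.36%.

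Summed over each list, markers of other cell types lay within the range of the other 15, except that epithelial and muscle markers were below it in control replicate 1. Sums over the lists were 81.9, 96.3 and 124 CPM against 87.2 to 144 for simple epithelium, 30.7, 33.1 and 42.9 against 25.6 to 54.4 for keratinocytes, 6.195, 3.96 and 5.11 against 3.90 to 9.67 for blood cells, and 48.2, 43.6 and 48.0 against 38.9 to 50.4 for endothelium. For neural cells they were 507, 512 and 480 against 400 to 553, for muscle 5.66, 14.1 and 14.6 against 11.6 to 18.1, for liver and kidney epithelium 1.08, 1.74 and 2.01 against 0.220 to 21.9, and for pluripotent cells 4.31, 5.35 and 5.26 against 3.26 to 5.94. Single markers above all others in both control replicate 1 and 30 µM replicate 6 were Sfn (2 and 10 counts), Coro1a (4 and 8 counts), Cd79a (1 and 2 counts) and Afp (1 and 2 counts). Cd79a and Afp were under the floor of 3 counts in both, and Sfn in control replicate 1. In 30 µM replicate 6 Sfn had 1.55 CPM against at most 0.531 in the other 15, and Coro1a 1.24 against at most 0.916. These too rest on few counts. Fewer cells of a type and less RNA per cell cannot be told apart in such libraries.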

How the data were processed

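The table that the authors deposited holds unnormalised counts of read pairs for Ensembl genes in 18 libraries, with 5 closing entries for pairs not counted to a gene. Per the submitters' processing notes, FastQC, HISAT2, SAMtools 1.2 and HTSeq were used. The notes list GRCh38, although the gene identifiers are of the mouse. The strand setting of the counting was not given in the sources used here. Pairs that align to several positions or genes were not counted, so paralogs, pseudogenes and overlapping genes are uncertain. All 18 columns matched a sample by name, and 0 did not.

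The closing entries were left out of library sizes and tests. The unaligned share is the entry for unaligned pairs over the column total. GENCODE M39 on GRCm39 named 51731 of 55487 identifiers and gave positions (1-based), transcript lengths and sequences. That build may differ from the one behind the counts.

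Counts were fitted in R 4.3.3 with edgeR 4.0.16 (filterByExpr, TMM, robust quasi-likelihood, two-sided) over all 18 libraries, with 1 term for each of the 3 libraries and the replicate number as a block, which left 9 residual degrees of freedom. The difference between control replicate 1 and 30 µM replicate 6 was a contrast of this fit. SE is the log2 difference over the root of its F statistic. P-values were adjusted by Benjamini-Hochberg over 13865 genes, with a threshold of 0.05. The scripts were tested on simulated data. Gene counts per library ran from 3.96 M to 20.8 M. Intervals and floors cover counting error only.

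The libraries, gene lists and tests were chosen with earlier results of these data known. Genes were named as the 12 called higher and the 12 called lower in all 3 libraries with the largest smallest difference (mean of at least 1 and 5 CPM in the other 15), the 6 at either end among genes called in opposite directions in control replicate 1 and 30 µM replicate 6, the 2 of highest CPM in each list, and markers above all of the other 15. Other named genes were chosen after their values were seen. A few genes that the rule names are not reported here. Alternatives were DESeq2 1.42.0, library totals alone, TMM on genes without a curated name, no filter on low counts, dose as a term, no replicate block, and each library left out in turn.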

Additional observations from a re-analysis of the deposited data

Results flagged for a closer look

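Each measure was compared within its dose group of 6 libraries, where a library was set apart when its gap to the nearest other library, over the group's range, was above Dixon's critical value for 6 samples. Of 402 groups, 170 passed, and in 162 the library was 1 of the 3 chosen here. Chance alone would set apart about 0.05 of groups that were not chosen by their values. The libraries were chosen for standing apart, and many of the named genes for their values in these libraries. That share therefore does not apply here, and the number is a description.

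The unaligned share, which chose the libraries, was not tested, and the shares of pairs that follow are out of all pairs, unaligned ones included, so they are not independent of it. Pairs outside genes set apart 10 µM replicate 6 (13.3%) and 30 µM replicate 6 (15.5%). Pairs fitting several genes (0.503%, 1.26% and 0.656%) and several positions (5.59%, 13.9% and 6.46%) set apart all 3, and gene counts set apart 30 µM replicate 6 (7.39 M).

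By gene class, protein-coding genes took 91.9% of gene counts in control replicate 1 and 90.8% in 30 µM replicate 6, and lncRNA genes took 0.695% in control replicate 1. Processed pseudogenes (0.867%, 1.09% and 0.942%), TEC genes (0.112%, 0.109% and 0.0871%) and the identifiers ENSMUSG00000076258 and ENSMUSG00000106106 together (3.65%, 0.562% and 5.49%) set apart all 3.

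By summed CPM of a list, control replicate 1 stood apart for small GTPases and 14-3-3 proteins (9328), ribosomal proteins (34540), developmental transcription factors (2950), chaperones (15190), glycolysis enzymes (5656), cell cycle genes (7012), Zfp genes (7275), snoRNA host genes (447), fibroblast markers (40420) and muscle markers (5.66). 10 µM replicate 6 stood apart for calmodulin and ubiquitin genes (4821), developmental transcription factors (2271), Zfp genes (7413) and mitochondrial ribosomal RNAs (9267). 30 µM replicate 6 stood apart for calmodulin and ubiquitin genes (4095), ribosomal proteins (41720), developmental transcription factors (2603), chaperones (16090), extracellular matrix (122100), families expanded in rodents (199.5), snoRNA host genes (405) and fibroblast markers (58020).

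Libraries outside the 3 were set apart 6 times by list sums. These were 30 µM replicate 5 for translation factors (29850), replication-dependent histones (5348) and endothelial markers (38.9), control replicate 4 for mitochondrial ribosomal RNAs (1933), 30 µM replicate 4 for blood cell markers (8.45) and 10 µM replicate 2 for liver and kidney markers (21.9). Among the named genes, 49 set apart control replicate 1, 28 set apart 10 µM replicate 6, 42 set apart 30 µM replicate 6 and 2 set apart another library.

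Control replicate 1 and 30 µM replicate 6 differed from their own numbers in opposite directions, with a called difference in edgeR, in 135 genes with control replicate 1 high and 197 with it low. The log2 difference between them was 4.42 for Gm22767, 4.09 for Snora57, 3.78 for Rnu11, 3.42 for ENSMUSG00000065820 and 3.21 for Gm23946. It was -2.81 for Haus5, -2.67 for Gm12751, -2.23 for Hemk1, -2.0 for Creld1, -1.93 for Rpsa-ps2 and -1.90 for Ptms.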

How the results depend on the processing

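The 12 genes named as higher in all 3 libraries kept their calls under every setting that gave a value (0 lost), whereas 9 of the 12 named as lower and 8 of the 12 named for opposite calls lost a call under at least 1. With DESeq2, 23 genes were lower in 10 µM replicate 6, 9 lower in all 3, and 113 lower in control replicate 1 and higher in 30 µM replicate 6. With library totals alone, 167 were lower in 10 µM replicate 6, 1390 higher and 4012 lower in 30 µM replicate 6, 397 higher and 108 lower in all 3, and 85 lower in control replicate 1 but higher in 30 µM replicate 6. Gnas (-0.032) and Eef2 (-0.20) then turned negative in 30 µM replicate 6. This scaling moved the median of all genes by -0.11, -0.07 and -0.23. With TMM on genes without a curated name, control replicate 1 was over 30 µM replicate 6 in 752 genes and under it in 2639, and opposite calls numbered 50 (control replicate 1 high) and 368. Without a filter on low counts, 138 were lower in 10 µM replicate 6 and 69 lower in all 3. With dose as a term, 610 genes were over and 834 under, and opposite calls numbered 74 and 93. Without the replicate block, 1550 were higher and 492 lower in 10 µM replicate 6 and 170 lower in all 3, and Ly6a in control replicate 1 turned to 0.45. Deviations of libraries with the same number correlated between 0.00398 and 0.578 (median 0.323, 13 pairs), and those with different numbers between -0.581 and 0.486 (median -0.138, 62 pairs). As not every pair with the same number correlated above 0.1, the libraries may share only a number. The cause of these changes was not tested.

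With 1 library left out, genes lower in 10 µM replicate 6 ranged from 26 (without 10 µM replicate 2) to 195 and those lower in all 3 from 9 (without 10 µM replicate 4) to 98. Opposite calls ranged from 99 to 240 with control replicate 1 high and from 149 to 335 with it low, lowest without 30 µM replicate 1. Each highest value came without 30 µM replicate 5. Genes higher in all 3 ranged from 551 to 696. Without control replicate 6, the comparisons of number 6 could not be fitted. Control replicate 1 had the fewest counts, so its values for low genes rest on few counts.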

Other observations

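Some further classes of small RNA genes are given by their values. Of 6 snRNA genes tested, 5 were higher in control replicate 1 (83.3%, against 18.7% of all genes). In 30 µM replicate 6, 2 were lower (33.3%, against 14.8%). The class took 0.0213%, 0.00702% and 0.00486% of gene counts against 0.00602% to 0.0124% in the other 15. The 32 misc_RNA genes, of which 5 were tested, summed to 587, 161.5 and 104 CPM against 106 to 467. ScaRNA genes, which guide the modification of spliceosomal RNAs in Cajal bodies, had another order and summed to 238, 300.3 and 318 CPM against 333 to 428, below all others in the 3 libraries.

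By chromosome, median log2 differences ran from -0.13 on chromosome 7 to 0.10 on chromosome 18 in control replicate 1, and from -0.20 on chromosome X to 0.13 on chromosome 15 in 30 µM replicate 6. The share of genes higher in all 3 ran from 2.95% on chromosome 12 to 5.801% on chromosome 1.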
